A study of Rattus norvegicus with 62 samples.

Results

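The genes described here are 7 markers of GABAergic interneurons, out of 32545 genes in the count table. The rule that set them names genes and Ensembl IDs and uses no measured value: Gad1 (ENSRNOG00000000007), Gad2 (ENSRNOG00000018200), Sst (ENSRNOG00000001837), Npy (ENSRNOG00000009768), Vip (ENSRNOG00000018808), Cck (ENSRNOG00000019321) and Pvalb (ENSRNOG00000006471). Of the 7, 6 passed the filter on low counts and were tested. The count table holds IDs without names, so the names rest on this choice alone.

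Expression was measured by RNA sequencing of bihemispheric punches (1.50 mm) of the central and basolateral amygdala of 62 male Long Evans rats, 1 library per animal. Rats entered the study at 10 to 12 weeks of age and 250 to 300 g. Blast animals received a 74.5 kPa overpressure wave in a shock tube once every 24 h over 72 h, and sham animals were handled in the same way without the wave. There were 17 sub-acute sham and 17 sub-acute blast animals, from the cohort tested for behavior 1 to 1.5 months after exposure (labelled acute), and 14 chronic sham and 14 chronic blast animals, from the cohort studied 12 to 14 months after exposure. Sub-acute and chronic animals were different rats, so time after exposure, age and cohort cannot be told apart.

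GABA is made from glutamate by 2 enzymes, GAD67, encoded by Gad1, and GAD65, encoded by Gad2, which mark inhibitory neurons in general. Somatostatin (Sst), neuropeptide Y (Npy), vasoactive intestinal peptide (Vip) and cholecystokinin (Cck) are neuropeptides and parvalbumin (Pvalb) is a calcium-binding protein, and each marks a class of interneuron. In the amygdala, the central nucleus is built mostly of GABAergic neurons, many of which make somatostatin, whereas the basolateral complex holds mostly glutamatergic cells with scattered interneurons, and Cck is also made by some glutamatergic neurons. In bulk tissue such as these punches, fewer cells of a type and less RNA per cell cannot be told apart.

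Sst was the only tested marker that differed between groups after adjustment over all genes, and Gad1 and Gad2 were the pair that varied most closely together. For these 3 genes, and for Vip, added because its window held a match to the cAMP response element, the 120 bases before the annotated start are shown, 5′ to 3′ on the strand of the gene. The windows are from RefSeq, build GRCr8, and were matched by gene name, which succeeded for 6 of the 7 markers. They lie at chr3:75777332-75777451 (Gad1, + strand), chr17:89671598-89671717 (Gad2, + strand), chr11:90461426-90461545 (Sst, + strand) and chr1:44470360-44470479 (Vip, + strand). The counts were made on another build, Rnor 6.0. Capitals mark any match on either strand to the cAMP response element (TGACGTCA), its first 7 bases (TGACGTC), its half-site (TGACG, contained in both), the TATA box (TATAAA) or the GC box (GGGCGG).
Gad1: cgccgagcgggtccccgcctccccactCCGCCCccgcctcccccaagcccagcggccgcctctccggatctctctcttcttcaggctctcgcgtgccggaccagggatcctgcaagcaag
Gad2: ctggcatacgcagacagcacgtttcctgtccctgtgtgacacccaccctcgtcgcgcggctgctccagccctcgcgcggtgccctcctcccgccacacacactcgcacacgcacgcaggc
Sst: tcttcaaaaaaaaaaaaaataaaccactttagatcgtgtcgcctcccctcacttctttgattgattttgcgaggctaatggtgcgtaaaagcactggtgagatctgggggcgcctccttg
Vip: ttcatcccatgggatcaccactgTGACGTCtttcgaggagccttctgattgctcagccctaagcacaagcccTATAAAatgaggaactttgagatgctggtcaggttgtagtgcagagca

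Over the 250 bases before the start, the 7-base cAMP response element match was found in Vip, at -97 to -91, and in 2.80% of all 33469 RefSeq windows of that length. The full 8-base element was in 1.59% of windows and in none of the 6 markers, and the half-site was in 18.2% of windows, Vip and Pvalb among them. The letters TATAAA were found in Gad1 (-213 to -208), in Vip (-175 to -170, -165 to -160 and -48 to -43) and in 12.9% of windows. Whether any of these matches works as a TATA box was not tested. GC boxes were found in Gad1, Npy and Pvalb and in 30.5% of windows. Gad2 and Sst held none of these letters in the window. Bases after the annotated start were not searched, so an element there, or before another start of the gene, would be missed. The absence of a match thus holds for these windows only.

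Sequencing depth differed with time. Total counts per animal ranged from 37627110 to 78585782 in the sub-acute groups and from 18220986 to 51769475 in the chronic groups, and 2 chronic libraries held fewer than 25000000. No 2 libraries of a group were alike enough to be copies of 1 library, since the lowest mean chi-square per gene over 454 pairs was 15.8, where sampling noise alone gives about 1. The first digit of the animal number, here called the number series, was uneven across groups. Sub-acute sham animals had 2 numbers in series 1, 14 in series 2 and 1 in series 6, sub-acute blast animals had 5 in series 1 and 12 in series 2, and all chronic animals were in series 1. Single animals are named by this number after letters for the time-point (A for the sub-acute, C for the chronic cohort) and treatment (S for sham, B for blast).

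The row ENSRNOG00000009768, chosen as Npy, held almost no reads. Across the 62 animals its counts ran from 0 to 5, summed to 66, and were 0 in 26 animals and at most 3 in 59. A limit of 3 counts corresponds to between 0.0382 and 0.165 CPM (counts per 1000000 counts of the library) in these libraries, so no level above that could be shown for most animals, in any group. Neuropeptide Y is known as a plentiful peptide of amygdala interneurons, which these counts do not show. Whether the ID belongs to another gene, or to an annotation of this gene that gathered few reads, was not tested. The identity of the row could not be checked from the count table. The row is referred to by its ID and was not compared between groups.

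The 6 tested markers were measured with 64 to 75394 counts per animal. CPM values below are scaled by trimmed mean of M-values (TMM) factors, and compare animals within a gene and not 1 gene with another, since no transcript lengths were used.

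Gad1 ranged from 249 to 680 CPM in sub-acute sham (median 518), from 332 to 667 CPM in sub-acute blast (median 498), from 218.5 to 695.5 CPM in chronic sham (median 425) and from 217 to 628 CPM in chronic blast animals (median 389). Gad2 ranged from 300.1 to 1269 CPM in sub-acute sham (median 912), from 438 to 1131 CPM in sub-acute blast (median 831), from 336 to 1329 CPM in chronic sham (median 728) and from 294 to 1208 CPM in chronic blast animals (median 574). For both enzymes the medians ran in the same order, highest in sub-acute sham and lowest in chronic blast, the 4 ranges overlapped, and neither the 2 sub-acute nor the 2 chronic groups, which are neighbours in that order, differed after adjustment. Sub-acute blast and chronic sham animals were not compared directly.

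Sst ranged from 110.3 to 203.9 CPM in sub-acute sham (median 158), from 127.8 to 252.5 CPM in sub-acute blast (median 165), from 137.02 to 185.7 CPM in chronic sham (median 151) and from 95.7 to 164 CPM in chronic blast animals (median 138). All 14 chronic blast animals lay below the sub-acute blast median, and 6 of them lay below the lowest sub-acute blast animal. Against the chronic sham animals, 7 of the 14 chronic blast animals lay below the lowest sham value. Chronic sham animals had the narrowest spread of Sst among the 4 groups (SD 14.3 CPM, against 21.5 CPM in chronic blast). Such counts of animals were not made for all genes. In the order of medians from sub-acute blast through sub-acute sham and chronic sham to chronic blast, no pair of neighbours passed the adjusted threshold.

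Vip and Cck had the widest ranges among animals. Vip ranged from 3.42 to 23.9 CPM in sub-acute sham (median 12.1), from 2.66 to 24.8 CPM in sub-acute blast (median 12.1), from 1.42 to 19.5 CPM in chronic sham (median 10.7) and from 3.73 to 20.3 CPM in chronic blast animals (median 13.3), a 17.4-fold span over all 62 animals. Cck ranged from 19.99 to 214.2 CPM in sub-acute sham (median 107.9), from 48.2 to 184.0 CPM in sub-acute blast (median 111.8), from 18.7 to 241 CPM in chronic sham (median 136.05) and from 64.3 to 310.1 CPM in chronic blast animals (median 145.99), a 16.5-fold span. The 4 groups overlapped in both neuropeptides, and no comparison between groups passed adjustment.

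Pvalb ranged from 7.17 to 32.4 CPM in sub-acute sham (median 13.6), from 6.997 to 20.4 CPM in sub-acute blast (median 11.5), from 4.68 to 20.1 CPM in chronic sham (median 10.6) and from 8.81 to 41.1 CPM in chronic blast animals (median 12.496). In chronic blast animals the highest values, 41.1 CPM in CB124 and 36.6 CPM in CB111, stood apart from the next (15.7 CPM). The highest sub-acute sham animal was AS601, the only animal of number series 6, which also had the highest Gad1 (680 CPM) and Gad2 (1269 CPM) and the lowest Cck (19.99 CPM) of its group.

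**Figure D1:**
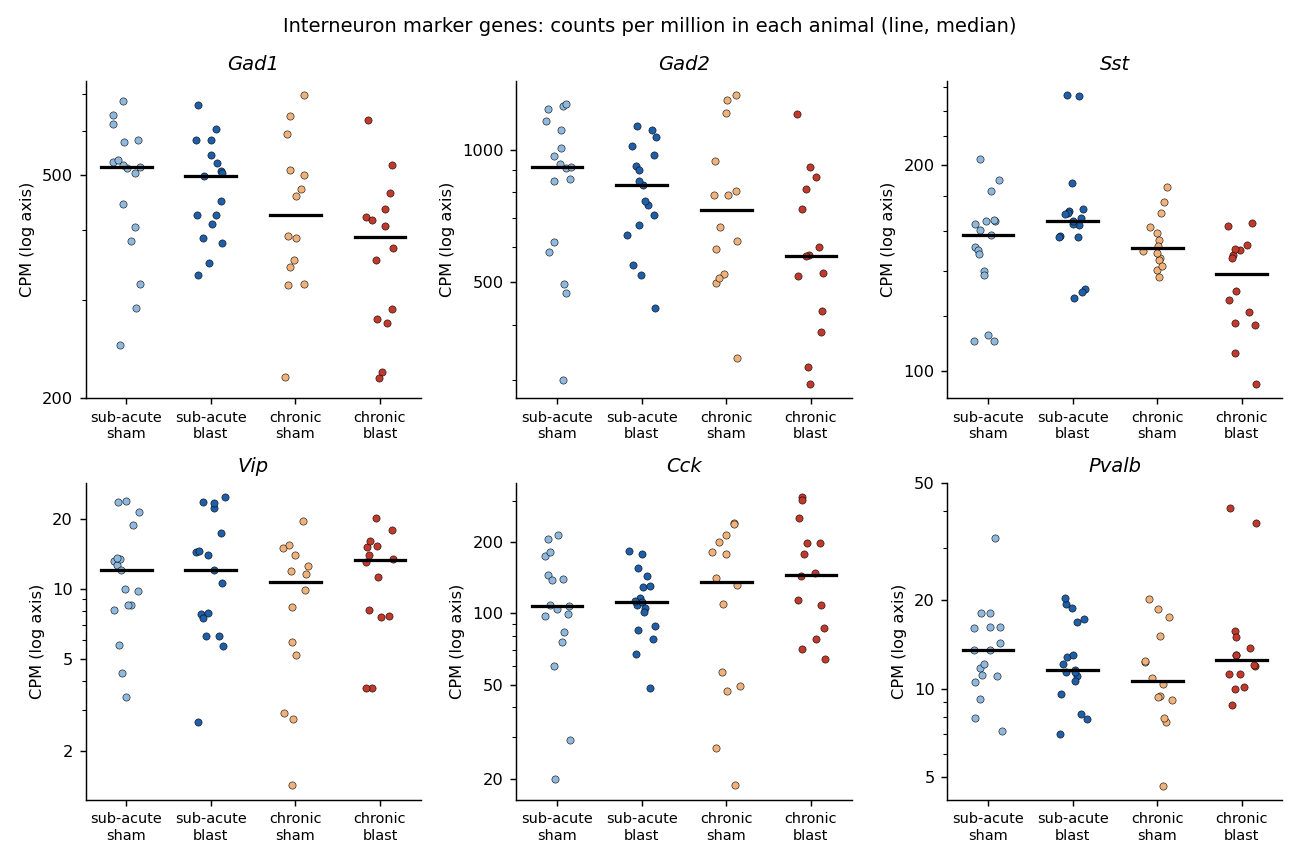
CPM (log axis) of the 6 tested markers, 1 point per animal (17, 17, 14 and 14 animals), with a line at each group median. Chronic blast animals sit lowest for Sst (median 138 CPM) and for both GAD genes (389 and 574 CPM), and the groups overlap in each panel.

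The first question was whether blast changed the markers at each time-point. In the sub-acute cohort no marker passed the test. Genes were called where the adjusted p-value (voom and limma, Benjamini-Hochberg over 16535 genes) was below 0.05 with a fold change of at least 1.2, and 0 of 6 markers were called against 0% of all genes. Without adjustment, 0 of 6 markers and 5.18% of all genes had p below 0.05, and the edgeR quasi-likelihood test and DESeq2 also called 0 markers. The log2 fold changes of the markers ran from -0.11 (Pvalb) to 0.14 (Sst). Sst had the lowest p-value (log2 fold change 0.14, SE 0.08, 95% confidence interval -0.02 to 0.30, p = 0.079, adjusted p = 0.77 by limma), and the Gad1 interval ran from -0.27 to 0.27.

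In the chronic cohort, Sst was 0.21 lower in blast than in sham animals on the log2 scale, a fold change of 0.863, and this did not pass adjustment (limma log2 fold change -0.21, SE 0.09, 95% confidence interval -0.39 to -0.04, p = 0.018, adjusted p = 0.90). Again 0 of 6 markers were called, against 0% of all genes, by voom and limma, and edgeR and DESeq2 called 0. Without adjustment 1 of 6 markers, Sst, and 5.04% of all genes had p below 0.05. Gad1 and Gad2 had log2 fold changes of -0.23 (SE 0.15) and -0.32 (SE 0.20), which became 8.1e-05 and -0.02 when surrogate variables were added. The other class markers had positive estimates with wide intervals. The 95% intervals of the log2 fold change were -0.22 to 1.17 for Vip, -0.15 to 1.14 for Cck and -0.06 to 0.77 for Pvalb. Leaving out each of the 62 animals in turn gave an unadjusted limma p for Sst of 0.0099 to 0.045.

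The second question was how the markers differed between the cohorts. In sham animals 0 of 6 markers were called between chronic and sub-acute time-points, against 1.55% of all genes (1.14% higher and 0.411% lower in chronic animals), and edgeR and DESeq2 also called 0. Without adjustment, 0 of 6 markers had p below 0.05, against 18.0% of all genes. The median log2 fold change was -0.17 over the 6 markers and -0.0047 over all genes. Sst differed by 0.03 between the sham groups (SE 0.08, 95% confidence interval -0.14 to 0.19, limma adjusted p = 0.90). Gad1 and Gad2 were lower by estimates of -0.16 (SE 0.14) and -0.18 (SE 0.19). With surrogate variables their estimates were -0.15 (limma adjusted p = 0.040) and -0.18 (limma adjusted p = 0.025), both below the fold limit.

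In blast animals Sst was lower at the chronic time-point. Its mean was 134.9 ± 21.5 CPM (SD, n = 14) in chronic and 170 ± 34.8 CPM (SD, n = 17) in sub-acute blast animals, and the log2 fold change was -0.33 (SE 0.08, 95% confidence interval -0.50 to -0.16, fold change 0.796, limma p = 0.00021, adjusted p = 0.0066). Sst was the 1 marker of 6 called, against 9.73% of all genes (6.71% higher and 3.02% lower in chronic animals), so the share of markers called was not far from the background. edgeR and DESeq2 called Sst as well. Without adjustment, 3 of 6 markers had p below 0.05, against 29.8% of all genes.

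The other 2 of those 3 were the GAD genes. Gad1 had a log2 fold change of -0.38 (SE 0.14, 95% confidence interval -0.67 to -0.10, p = 0.0093, limma adjusted p = 0.058) and Gad2 of -0.44 (SE 0.19, 95% confidence interval -0.82 to -0.06, p = 0.023, limma adjusted p = 0.10). Their estimates were larger than that of Sst but their spread among animals was wider. The published study listed Gad1 and Gad2 in a GABA receptor signaling set drawn from genes with adjusted p below 0.05 in this contrast. Neither passed adjustment in this fit, and whether the filter or model differed was not checked. Of the 14 chronic blast animals, 12 lay below the sub-acute blast median for Gad1 and 11 for Gad2. Gad1 stood close to the threshold. It was called when all 26364 genes with at least 1 count were tested (adjusted p = 0.038) and when any 1 of 7 animals was left out, namely AB206 (adjusted p = 0.044), AB239 (0.048), AS208 (0.048), CB111 (0.0499), CB122 (0.026), CB134 (0.036) or CS125 (0.047). In the fit of 26364 genes, 5419 genes were called, against 1609 of 16535 in the fit reported above. Gad2 was called when CB122 was left out (adjusted p = 0.049). In the following fits neither gene was called. With surrogate variables the log2 fold changes were -0.17 for Gad1 (limma adjusted p = 0.060) and -0.21 for Gad2 (adjusted p = 0.038, below the fold limit). With the number series as a covariate the adjusted p-values were 0.16 and 0.22, in series 1 alone 0.31 and 0.34, and with depth in the model 0.28 for both.

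Vip, Cck and Pvalb were not called between blast cohorts. The limma log2 fold changes were -0.0022 for Vip (95% confidence interval -0.62 to 0.61), 0.39 for Cck (-0.23 to 1.00) and 0.21 for Pvalb (-0.17 to 0.59). These intervals are wide enough to include changes larger than that of Sst. With depth in the model the estimates were 0.48 for Vip (adjusted p = 0.41) and 0.79 for Cck (adjusted p = 0.18), and the Pvalb estimate ran from 0.10 to 0.26 when each animal was left out in turn.

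**Figure D2:**
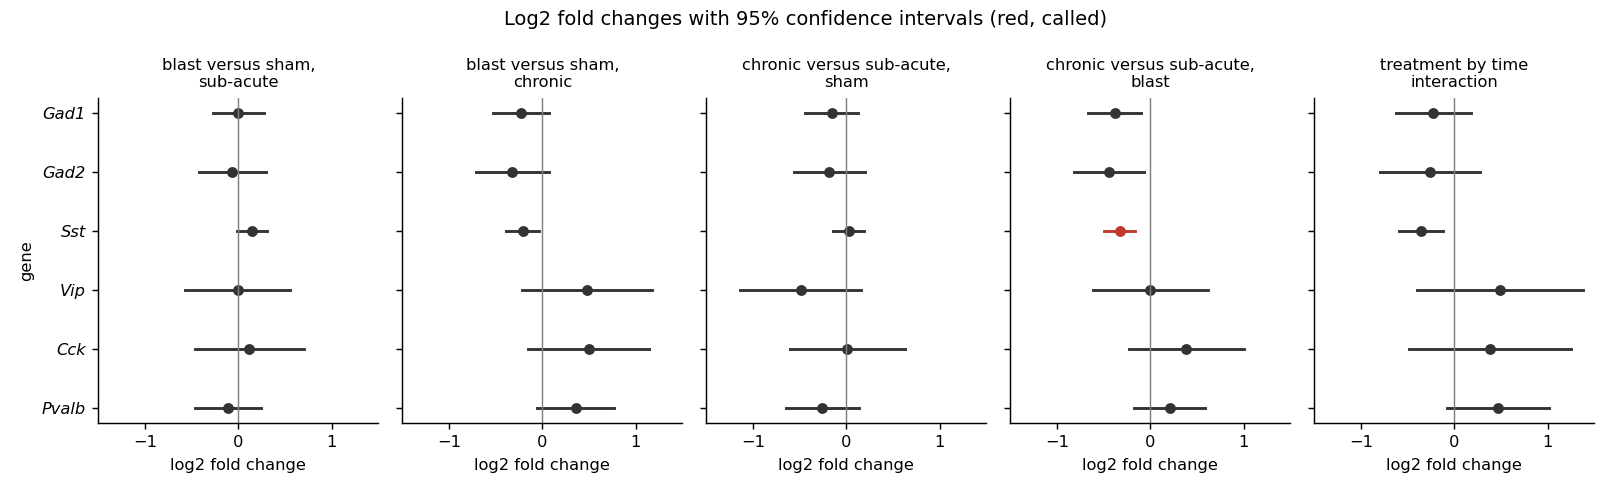
Log2 fold changes (points) with 95% confidence intervals (bars) from the voom and limma fit of 62 animals, for 6 markers in 5 contrasts. Only Sst between chronic and sub-acute blast animals (red, -0.33) was called, and the intervals of Vip, Cck and Pvalb are wide in each panel.

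The call for Sst held without any 1 of the 62 animals (limma adjusted p 0.0038 to 0.022, highest without CB121), but not in every processing. It was lost when the number series was a covariate (log2 fold change -0.30, limma adjusted p = 0.12), when only animals of series 1 were fitted (-0.24, adjusted p = 0.26) and when 9 surrogate variables were added (-0.23, adjusted p = 0.13). Calls among all genes fell in the same fits, from 1609 of 16535 to 276 of 16535 with the number series, 14 of 17811 in series 1 alone and 390 of 16535 with surrogate variables. In each of these fits the Sst estimate stayed below 0 with an unadjusted limma p of 0.00996, 0.017 and 0.012, respectively. The share of all genes with an unadjusted p below 0.05 was not computed for them. Depth also differed between the cohorts, and Sst was called in a fit that held the log2 total count of each animal (-0.36, adjusted p = 0.030).

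Within number series 1, Sst ranged from 131.7 to 171 CPM in the 5 sub-acute blast animals (median 163) and from 95.7 to 164 CPM in the 14 chronic blast animals (median 138). The 12 sub-acute blast animals of series 2 ranged from 127.8 to 252.5 CPM (median 167) and held the 2 highest Sst values of the study. The 2 sub-acute sham animals of series 1 had 158 and 165 CPM. Series 2 held no chronic animal, so no difference with time could be computed in it, and part of the difference between cohorts cannot be told apart from the number series.

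**Figure D3:**
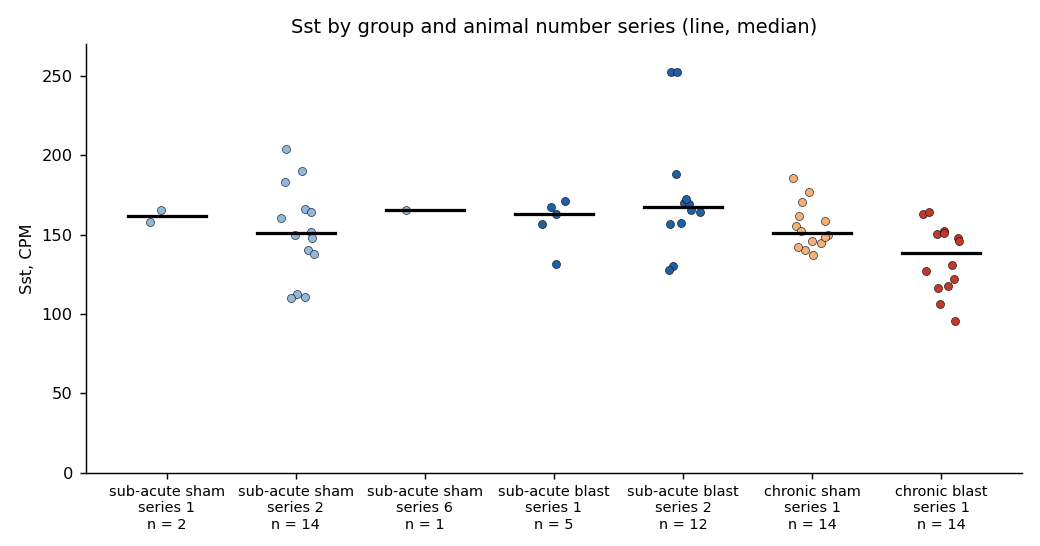
Sst in CPM by group and number series, 1 point per animal with a line at the median. Both series of sub-acute blast animals have medians (163 and 167 CPM) above that of chronic blast animals (138 CPM), and chronic animals are all of series 1.

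**Figure D4:**
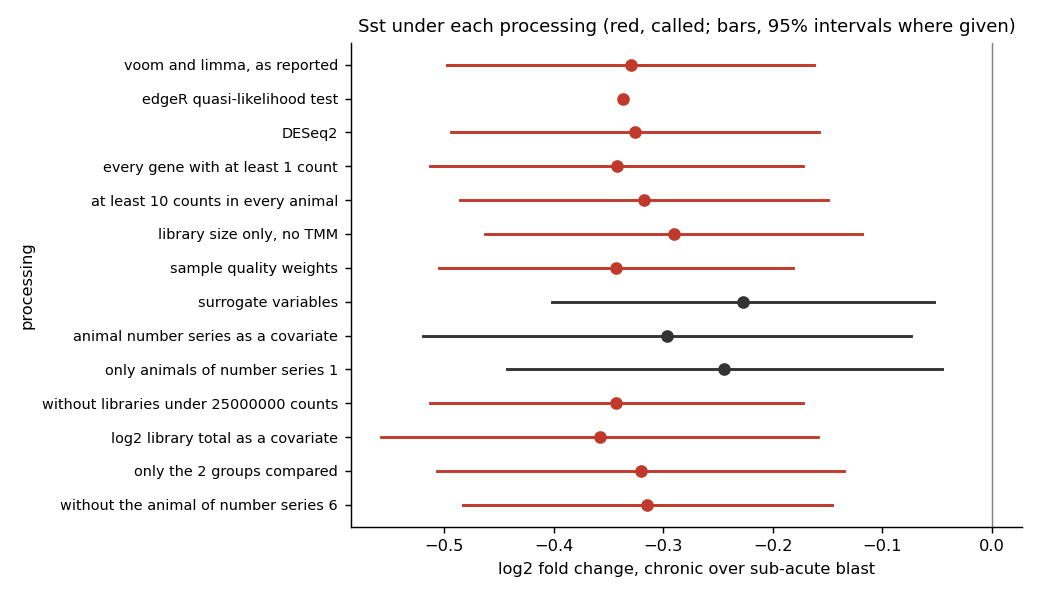
Log2 fold change of Sst between chronic and sub-acute blast animals under each processing, with 95% confidence intervals where the method gave them (red, called). Estimates run from -0.36 to -0.23 and 3 of the 14 fits, those with surrogate variables or the number series, were not called.

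The third question was whether the difference between cohorts itself differed between blast and sham. For Sst the treatment by time interaction was -0.36 on the log2 scale (SE 0.12, 95% confidence interval -0.59 to -0.12, p = 0.0039), with a limma adjusted p of 0.84, so it did not pass adjustment. It was thus not shown that the lower Sst of chronic blast animals was particular to blast. No marker of 6 was called, against 0% of all genes, and edgeR and DESeq2 called 0. Without adjustment 1 of 6 markers, Sst, and 5.56% of all genes had p below 0.05. Leaving out each animal in turn gave an unadjusted limma p for Sst of 0.0021 to 0.0085. Fitted in number series 1 alone, with 2 sub-acute sham animals, the estimate was -0.18 (SE 0.17, p = 0.32). The interaction estimates of Gad1 (-0.23, SE 0.20) and Gad2 (-0.26, SE 0.27) had the sign of Sst, while those of Vip (0.49, SE 0.45), Cck (0.38, SE 0.44) and Pvalb (0.46, SE 0.27) had the opposite sign. This contrast of signs was not stable, since the Cck estimate was -0.01 with sample quality weights, the Vip estimate was 0.02 with surrogate variables, and the Gad1 and Gad2 estimates were then -0.02 and -0.03.

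Ratios of markers within an animal do not depend on library scaling, and are given as descriptions. The log2 ratio of Sst to Gad1 was -1.64 ± 0.36 in sub-acute sham, -1.49 ± 0.40 in sub-acute blast, -1.46 ± 0.46 in chronic sham and -1.44 ± 0.56 in chronic blast animals (SD, n = 17, 17, 14 and 14). Between the blast cohorts it moved by 0.05, less than the SD of either group. The Cck and Pvalb ratios differed between the blast cohorts by 0.77 (from -2.12 ± 0.77 to -1.35 ± 1.11) and by 0.59 (from -5.26 ± 0.63 to -4.67 ± 0.63), and between the sham cohorts by 0.16 and -0.10. These differences were also within 1 SD of either group. The SD describes the spread among animals and not the uncertainty of a difference between group means, and no difference of ratios was tested. The Vip ratio moved by 0.33 in blast and by -0.32 in sham animals, with SDs of 0.98 to 1.41. The ratio of Gad2 to Gad1 was the steadiest, with group medians of 1.56 to 1.71 and a range of 1.205 to 2.37 over all animals.

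Across animals the markers fell into a few patterns of covariation. Pearson r and Spearman rho were computed on log2 CPM with group means removed over 62 animals, for the 15 pairs of tested markers, with p-values from a permutation test that shuffled animals within groups (100000 resamples, two-sided) and Benjamini-Hochberg adjustment over the 15 pairs. In all, 6 pairs had an adjusted p below 0.05. Correlations of this size were common in these libraries, since 5% of all genes tested had an r with Gad1 below -0.48, with Gad2 below -0.51, with Vip below -0.57 and with Cck below -0.44, and 5% had an r with Vip above 0.61 and with Cck above 0.53. The values are not independent of shared library effects, since both genes of a pair were read from the same library.

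Gad1 and Gad2 varied together among animals (r = 0.95, rho = 0.92, permutation p = 1e-05 for both, the smallest these permutations can give, adjusted p = 3.7e-05 and 2.5e-05). Without the 2 animals farthest from the Gad1 median, r was 0.94. It was 0.93 to 0.97 within the 4 groups, 0.96 within number series 1 and 0.94 within series 2. No gene outside the set came as close, the highest r being 0.90 with Gad1 and 0.91 with Gad2.

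Vip and Cck also varied together (r = 0.77, rho = 0.73, permutation p = 1e-05 for both, adjusted p = 3.7e-05 and 2.5e-05). Without the 2 animals farthest from the Vip median r was 0.73, and it was 0.76 in series 1 and 0.80 in series 2. Within groups it was 0.87, 0.78 and 0.94 in sub-acute sham, sub-acute blast and chronic sham animals, and 0.39 in chronic blast animals.

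Both neuropeptides ran opposite to the GAD genes, more clearly for Cck than for Vip when read against all genes. With Cck, 99.4% of genes had a higher r than either GAD gene had. With Vip, 94.9% had a higher r than Gad1 and 93.1% a higher r than Gad2. Counted from the GAD genes, 97.5% of genes had a higher r with Gad1 than Vip had, and 95.6% with Gad2. How far the relations with Vip stood out thus depended on the gene they were read from. For Gad1 and Cck r was -0.63 and rho -0.71 (permutation p = 1e-05 for both, adjusted p = 3.7e-05 and 2.5e-05), with r of -0.61 without the 2 farthest animals, -0.57 in series 1 and -0.70 in series 2. For Gad1 and Vip r was -0.57 and rho -0.67 (permutation p = 3e-05 and 1e-05, adjusted p = 7.5e-05 and 2.5e-05), with r of -0.55 without the 2 farthest animals, -0.44 in series 1 and -0.76 in series 2. Gad2 gave r of -0.62 with Cck and -0.53 with Vip (rho -0.72 and -0.63, permutation p = 1e-05 and 3e-05 for r and 1e-05 for rho, adjusted p = 3.7e-05 and 7.5e-05 for r and 2.5e-05 for rho). Without the 2 farthest animals these r values were -0.61 and -0.50, in series 1 they were -0.54 and -0.33, and in series 2 they were -0.79 and -0.83. All of these pairs had the same sign in each of the 4 groups, with the weakest values in chronic blast animals for Vip (-0.20 with Gad1 and -0.12 with Gad2).

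Sst and Pvalb had pooled r values near 0, which differed between groups. The r of Sst with the other markers ran from -0.14 (Vip) to 0.11 (Gad1), and that of Pvalb from -0.16 (Gad2) to 0.03 (Vip), with permutation p-values of 0.25 to 0.96 and adjusted p-values of 0.47 to 0.96. For Sst and Gad1 rho was 0.05 (permutation p = 0.69), and r was 0.01 without the 2 farthest animals, -0.15 in series 1 and 0.38 in series 2. Within groups r of Sst and Gad1 ran from 0.51 in sub-acute sham to -0.22 in chronic blast animals, and r of Sst and Gad2 from 0.35 to -0.38 in the same groups. For Sst and Cck r was -0.65 in chronic sham and 0.51 in chronic blast animals. For Cck and Pvalb r was 0.39 in sub-acute blast and -0.69 in chronic blast animals. In series 2 Pvalb had r of 0.48 with Cck, 0.46 with Vip and -0.45 with Gad2, against -0.16, -0.10 and -0.08 in series 1. The groups hold 14 or 17 animals each, and differences of r between groups or series were not tested.

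**Figure D5:**
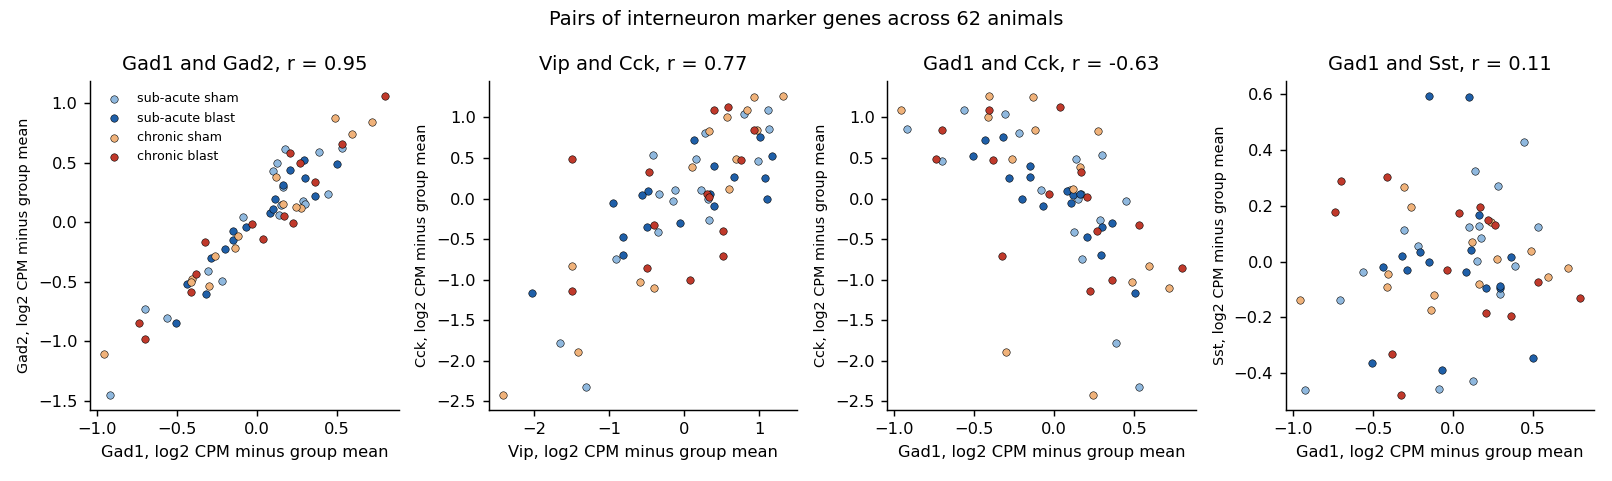
Log2 CPM minus the group mean for 4 pairs of markers, 1 point per animal, colored by group (62 animals). Gad1 and Gad2 lie along a line (r = 0.95), Vip rises with Cck (r = 0.77), Cck falls with Gad1 (r = -0.63), and Sst shows no slope with Gad1 (r = 0.11).

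Depth was compared with the markers in the same way. Of 6 markers tested against the log2 library total with group means removed, Vip had r = 0.35 and rho = 0.29 (permutation p = 0.0059 for r and 0.022 for rho, adjusted p = 0.035 and 0.12), with r of 0.21 without the 2 libraries farthest from the median total, 0.37 in series 1 and 0.34 in series 2, and the remaining markers had r of -0.07 (Sst) to 0.26 (Cck). The rank correlation did not pass adjustment, and the part of depth in the relation of Vip and Cck was not tested.

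The genes outside the set that varied most like each marker are given by ID, with r over 62 animals and group means removed, as a description. ENSRNOG00000010905 was closest to Gad1 (r = 0.90), ENSRNOG00000005705 was closest to Gad2 (r = 0.91) and second for Gad1 (r = 0.87), and ENSRNOG00000005049 was closest to Cck (r = 0.94). The closest gene to Vip had r = 0.93, to Pvalb 0.79 and to Sst 0.56. Sst thus had the weakest partner, and 95% of all genes had an r with it below 0.35.

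Spread among animals also differed by cohort, and is described without a test. The SD of Sst was 0.26 in sub-acute sham, 0.27 in sub-acute blast, 0.13 in chronic sham and 0.24 in chronic blast animals on the log2 scale. The chronic to sub-acute variance ratio of Sst was 0.25 in sham and 0.79 in blast animals, where the median over all genes was 1.42 and 2.405. With a squared median absolute deviation in place of the variance, the Sst ratio was 0.73 in sham but 5.24 in blast animals, so its direction in blast depended on the measure. For the GAD genes the ratio in blast animals was 2.41 (Gad1) and 2.16 (Gad2), near the median of all genes. Vip was below 1 in blast by both measures (0.75 and 0.26), and Pvalb was above 1 by the variance (2.01) but not by the other measure (0.61). Cck was above 1 by both (2.34 and 3.04), but by the variance it lay below the median of all genes (2.405). By the squared median absolute deviation the median of all genes was 1.96 in blast and 1.12 in sham animals.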

How the data were processed

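RNA sequencing libraries were made by the authors with the KAPA stranded kit after ribosomal RNA removal and sequenced as paired reads of 50 bp. Per the labels and methods, reads were aligned with STAR 2.4.2a to Ensembl Rnor 6.0 and counted per gene with featureCounts 1.4.3-p1, which are the raw counts deposited. Whether strand was used in counting is not given in the sources used here. Groups were taken from the sample labels, and 2 columns that match no sample were not used. Where p-values compare groups they cover the spread between animals.

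In R 4.3.3, genes were filtered with filterByExpr of edgeR 4.0.16 (16535 of 32545 kept), scaled with TMM factors (0.944 to 1.11) and fitted with voom and limma 3.58.1 to the 4 group means of 62 animals, with Benjamini-Hochberg adjustment over all genes kept. Genes with an adjusted p below 0.05 and a fold change of at least 1.2 were called, and the interaction had no fold limit. Log2 CPM used a prior count of 2. The scripts were tested on simulated data. Correlations, variances and ratios were computed in Python (numpy and scipy), and 15 pairs were tested in place of the 21 planned, since 1 marker was not tested. All 7 markers are named whatever their values, with the genes of highest r to them, of which 3 are named by ID. The alternatives were edgeR, DESeq2 1.42.0, other filters and scaling, quality weights, surrogate variables (sva 3.50.0), depth and number series. The markers and lists were chosen with earlier results of these data known. Lists of other GABA pathway and cell type genes were not analysed here, because IDs and names could not be paired, so the dissected tissue was not checked against them.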

Additional observations from a re-analysis of the deposited data

How the results depend on the processing

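No marker changed sign while called, in any fit run. In blast animals, the number of markers called between chronic and sub-acute time-points was 1, and became 2 when every gene with at least 1 count was tested, and 0 after adding surrogate variables, after adding the number series of the animals, or in series 1 alone. Calls among all genes moved the same way, from 1609 of 16535 to 5419 of 26364 when every gene with at least 1 count was tested. They were 390 of 16535 with surrogate variables, 276 of 16535 with the number series and 14 of 17811 in series 1 alone. The counts of markers called in the other 4 contrasts were 0 under all alternatives run. Of 384 alternative values of log2 fold changes, 352 stayed within 1 SE of the reported value or kept their call, and 36 had another sign, all of them uncalled. The largest of these was the Cck interaction (0.38, and -0.01 with sample quality weights), and surrogate variables brought the GAD genes between chronic blast and sham animals to 8.1e-05 and -0.02. Of 75 alternative r values of marker pairs, 59 lay within 0.1 of the reported r. Leaving out the animal of series 6 and leaving out each animal in turn were chosen after seeing the data. No paired analysis was possible because each rat was in 1 group and animal numbers were not repeated across groups. The depth of the chronic libraries and the wide spread of Vip and Cck limit what could be shown for them, and ENSRNOG00000009768 had too few counts for any comparison.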
